A study of Mus musculus with 103 samples.

Results

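Aminoacyl-tRNA synthetases, the enzymes that join each amino acid to its tRNA, were followed in the cortex of Nsun2 KO and WT mice. The members were taken by gene name, but the set was chosen with earlier results of these data known. It held 20 cytosolic synthetase genes, 16 mitochondrial synthetase genes (symbols ending in 2) and 3 scaffold genes of the multisynthetase complex. These were 39 genes of the 12719 transcripts in the Riboseq table. Each gene was represented by 1 transcript, the one with the longest coding sequence, and all 39 passed the filter on low values that left 10674 transcripts for testing. KO mice carried a floxed Nsun2 gene and the Camk2a-Cre transgene, and WT mice carried the floxed gene without Cre (labelled Nsun2 floxed, Camk2a-Cre pos. and neg.). Both were adults, with 2 KO and 2 WT mice, and each cortex gave a ribosome footprint library and an RNA library. Camk2a-Cre acts in forebrain excitatory neurons, so other cell types of the tissue kept an intact gene. In bulk cortex, a change in the number of cells of a type and a change in the RNA per cell cannot be told apart.

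Nsun2 methylates cytosines in tRNA, and its own transcript served as a check of the labels. Nsun2 RNA was 362 and 368 in KO mice, against 1292 and 1119.9 in WT mice (log2 fold change -1.72, standard error 0.12, adjusted p = 4.5e-05 by limma). Its footprints were 30.4 and 23.0 in KO mice, against 130.0 and 114 in WT mice (log2 fold change -2.16, standard error 0.21, adjusted p = 1.5e-04 by limma). Both mice of each genotype matched their labels. The RNA libraries held 10465003 to 13174377 reads if the smallest step between values equals 1 read, an assumption that the sources do not settle. The depth behind the corrected footprint values is unknown. Mice of a genotype correlated at 0.990 or more in RNA and at 0.969 or more in footprints (Pearson r across transcripts, log2 scale). All 6 markers of excitatory neurons were detected in every mouse, as were those of inhibitory neurons, astrocytes, oligodendrocytes and microglia. Of these 30 markers, Gfap (astrocytes, log2 fold change 0.76) and Pvalb (inhibitory neurons, 0.76) were higher and Cx3cr1 (microglia, -0.73) was lower in KO RNA, and the other 27 passed in neither direction. The summed RNA value of the 6 excitatory neuron markers was 67736 and 68298 in KO mice, against 83836 and 76182 in WT mice, and that of the 6 inhibitory neuron markers was 7986 and 8154 in KO mice, against 6356 and 6135 in WT mice. The summed RNA values of astrocyte, oligodendrocyte and microglia markers overlapped between the genotypes, as did those of 5 striatal markers. Of 6 endothelial and blood markers 5 were in the table, with a summed RNA value of 1011 and 937 in KO mice, against 577 and 802 in WT mice, without overlap. The 2 of them that were tested, the globin genes Hba-a1 and Hbb-bs, had log2 fold changes of 0.55 (adjusted p = 0.099, limma) and 0.59 (adjusted p = 0.058, limma) and did not pass. The part of these markers in the results was not tested.

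Cytosolic synthetases fall into class I and class II by the fold of their catalytic domain. In animals, several of them are held with the scaffold proteins Aimp1, Aimp2 and Eef1e1 (also called Aimp3) in the multisynthetase complex, and the others work as free enzymes. Mitochondria use a second, nuclear-encoded set of enzymes for their own tRNAs, except that Gars and Kars supply both compartments from a single gene. Many cytosolic synthetase genes are targets of Atf4, the transcription factor that is made when the integrated stress response slows translation initiation. Atf4 binds, together with C/EBP family partners, to composite elements that are often written TGATGNAAN.

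RefSeq promoters of the GRCm38.p6 build, which run from 250 bases before to 50 bases after each transcription start, were found for 30 of the 39 members by symbol or gene ID. Cars, Hars, Lars, Nars, Rars, Vars, Wars, Hars2 and Pars2 had no entry. A match is a run of letters and not a measured binding site. TGATGNAAN, searched on both strands, occurred in 5 of the 13 cytosolic promoters found and in 0 of 14 mitochondrial and 0 of 3 scaffold promoters. Of all 32851 promoters of this length, 3.95% held it, as did 2.55% of the 8353 genes that were tested here and had a promoter. A window around a match is shown for each of these genes because all 5, Aars, Gars, Iars, Tars and Yars, were among those with higher RNA in KO cortex. They are written along the gene's strand with 10 bases on either side, and capitals mark the matched letters, which read TGATGNAAN on the opposite strand in every window except that of Yars.
Aars (chr8:111033840-111033868, plus strand): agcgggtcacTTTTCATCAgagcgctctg
Gars (chr6:55037960-55037988, plus strand): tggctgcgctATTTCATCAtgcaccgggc
Iars (chr13:49682126-49682154, plus strand): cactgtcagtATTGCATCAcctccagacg
Tars (chr15:11399656-11399684, minus strand): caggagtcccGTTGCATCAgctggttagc
Yars (chr4:129189896-129189924, plus strand): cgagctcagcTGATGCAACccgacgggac
The first base of the match shown lay at 9 in Aars, at -31 in Gars, at 7 in Iars, at -16 in Tars and at 4 in Yars, counted from the transcription start (base 1). Sars, Mars1 and Eprs, which were also higher in RNA, had no match in the same window. Dars, Farsa, Farsb, Kars and Qars had none either, and none of them passed in RNA. Over all transcripts, 11 of 116 genes with higher RNA and a promoter held a match (9.48%), and these 11 include the 5 genes shown above. Of 116 genes with lower RNA and a promoter, 5 held a match (4.31%).

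The 250 bases before the start are shown for Gars, which charges the glycine tRNAs that Nsun2 methylates, with the match in capitals (plus strand, RefSeq, GRCm38.p6).
Gars (chr6:55037751-55038000): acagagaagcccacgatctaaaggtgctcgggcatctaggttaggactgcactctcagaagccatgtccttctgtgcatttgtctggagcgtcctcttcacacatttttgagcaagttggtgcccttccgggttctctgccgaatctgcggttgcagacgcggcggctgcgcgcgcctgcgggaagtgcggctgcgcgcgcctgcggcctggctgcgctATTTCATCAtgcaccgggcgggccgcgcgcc

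RNA of cytosolic synthetases was higher in KO than in WT cortex. Of the 39 members, 11 rose and 0 fell (limma on log2(value + 1), Benjamini-Hochberg adjusted p under 0.05 over 10674 transcripts), while 1.5% of all transcripts tested rose and 1.65% fell (160 and 176 transcripts; 122 and 208 after scaling by the median of log ratios). All 11 were among the 20 cytosolic enzymes. The median log2 fold change of these 20 was 0.51, with all 20 values above 0, against a median of 0.04 for all transcripts tested. Both KO mice exceeded both WT mice for 19 of the 20, an arrangement that 31.4% of all transcripts showed. The number called was 9 without KO mouse 1 (Iars and Vars were lost), 7 without KO mouse 2 (Eprs, Iars, Tars and Vars were lost) and 5 without WT mouse 2 (Eprs, Gars, Iars, Mars1, Tars and Vars were lost). With the replicate number added to the fit as a block, 0 members passed, at the same fold changes. With 2 mice a genotype, the p-values rest on the spread within the genotypes of these 4 cortices. The fit also draws the spread of each transcript toward that of transcripts at a similar level.

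**Figure D1:**
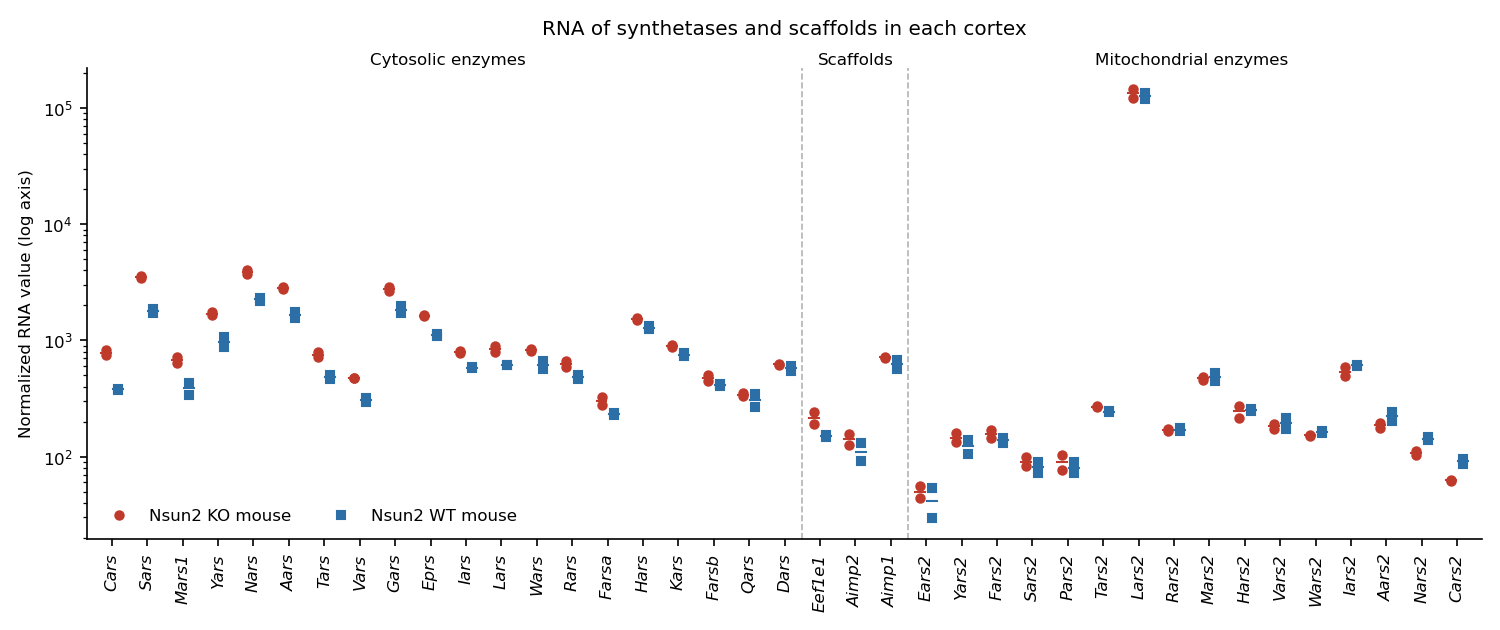
Normalized RNA value of each of the 39 members (log axis) in the 2 Nsun2 KO mice (circles, left) and the 2 WT mice (squares, right), with short lines for group means and genes ordered within each class by fold change. KO circles lie above WT squares in 19 of the 20 cytosolic enzymes, all but Qars, and Lars2 stands far above every other member in all 4 mice.

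Among the free cytosolic enzymes, 8 of 12 rose, with a median log2 fold change of 0.63. Sars, which charges serine tRNA and the selenocysteine tRNA, had RNA values of 3437 and 3609 in KO mice, against 1862 and 1732 in WT mice (log2 fold change 0.97, standard error 0.10, adjusted p = 6.6e-04; chr3:108426612-108445169, GRCm38). Cars, the cysteine enzyme, had 823 and 743 in KO mice, against 384 and 376 in WT mice (log2 fold change 1.04, standard error 0.12, adjusted p = 0.0015; chr7:143557230-143600090). In both genes the KO mice had about the same value and lay well above both WT mice, at a fold of 1.96 for Sars and 2.05 for Cars. Nars, the asparagine enzyme, had 3725 and 4046 in KO mice, against 2322 and 2182 in WT mice (log2 fold change 0.79, standard error 0.10, adjusted p = 0.0023). Aars, the alanine enzyme, had 2774 and 2876 in KO mice, against 1757 and 1564 in WT mice (log2 fold change 0.77, standard error 0.10, adjusted p = 0.0034). Yars, the tyrosine enzyme, had 1644 and 1749 in KO mice, against 1072 and 870.1 in WT mice (log2 fold change 0.81, standard error 0.12, adjusted p = 0.0055). The genotypes did not overlap in any of the 5 genes, and each of the 5 passed again whichever mouse was left out.

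Gars, the glycine enzyme, had RNA values of 2688 and 2874 in KO mice, against 1969.7 and 1711 in WT mice (log2 fold change 0.60, standard error 0.11, adjusted p = 0.017; chr6:55038007-55079500), without overlap between the genotypes. It did not pass without WT mouse 2. Tars, for threonine, had 724 and 788 in KO mice, against 465 and 509 in WT mice (log2 fold change 0.63, standard error 0.12, adjusted p = 0.019). Vars, for valine, had 479 and 475 in KO mice, against 318 and 297 in WT mice (log2 fold change 0.63, standard error 0.12, adjusted p = 0.024). Vars is the only 1 of the 11 that was not in the list of synthetases known as Atf4 targets. The remaining free enzymes did not pass. Wars, for tryptophan, had 812 and 838 in KO mice, against 671 and 568 in WT mice, with a fold change of 0.42 on the log2 scale (adjusted p = 0.083, limma). Hars, for histidine, and the subunits Farsa and Farsb of the phenylalanine enzyme had log2 fold changes of 0.25, 0.36 and 0.20. Hars and Hars2 lie head to head on chromosome 18 and their transcripts overlap at the 5′ ends on opposite strands; reads were aligned to one strand only.

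Of the 8 enzymes of the multisynthetase complex, 3 rose and 0 fell, with a median log2 fold change of 0.41. Mars1, which charges methionine tRNA for initiation and elongation, had 716 and 642 in KO mice, against 432 and 340.5 in WT mice (log2 fold change 0.82, standard error 0.14, adjusted p = 0.014). Eprs, a single protein that charges glutamate and proline tRNAs, had 1621 and 1643 in KO mice, against 1082 and 1127 in WT mice (log2 fold change 0.56, standard error 0.10, adjusted p = 0.017; chr1:185363044-185428360). Iars, for isoleucine, had 785 and 814 in KO mice, against 575 and 590.3 in WT mice (log2 fold change 0.46, standard error 0.11, adjusted p = 0.048), just inside the threshold. It was lost under 2 other scalings and when any 1 of the 4 mice was left out. Lars, for leucine, lay just outside, with 802 and 893 in KO mice, against 620.3 and 619 in WT mice (log2 fold change 0.45, standard error 0.11, adjusted p = 0.055). Rars, Kars, Qars and Dars, for arginine, lysine, glutamine and aspartate, had log2 fold changes of 0.36, 0.25, 0.17 and 0.12 and did not pass. By catalytic fold, 5 of 9 class I and 5 of 10 class II enzymes rose, and Eprs, which has a domain of each class, rose as well.

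The 3 scaffold genes did not pass in RNA (limma, 0 of 3; 1 at an unadjusted p under 0.05). Eef1e1 had 189.5 and 242 in KO mice, against 147 and 152 in WT mice, the highest fold change of the 3 (log2 fold change 0.51, standard error 0.17, adjusted p = 0.112). Aimp1 and Aimp2 had log2 fold changes of 0.20 and 0.36, with 95% intervals of -0.06 to 0.47 and -0.10 to 0.81. Both Aimp1 values of KO mice exceeded those of WT mice, and those of Aimp2 overlapped.

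No mitochondrial synthetase passed in RNA. Of 16, 0 rose and 0 fell (limma; 0 higher and 2 lower at an unadjusted p under 0.05), their median log2 fold change was -0.03, and 7 values lay above 0 and 9 below. Whether the cytosolic and mitochondrial sets differed was not tested, since genes are not replicates. The lowest fold changes were those of Cars2, with 63.2 and 61.8 in KO mice, against 86.9 and 95.6 in WT mice (log2 fold change -0.54, standard error 0.20, adjusted p = 0.164), and Nars2, with 112 and 103 in KO mice, against 147 and 138 in WT mice (log2 fold change -0.41, standard error 0.17, adjusted p = 0.201). For cysteine and asparagine, the cytosolic enzyme rose and its mitochondrial counterpart had a value below 0. Ears2 had the highest value, 0.31, with an interval of -0.37 to 0.98. Aars2, Iars2 and Wars2 had both KO mice below both WT mice as well, with log2 fold changes of -0.25, -0.18 and -0.09, an arrangement that 21.6% of all transcripts showed. Fars2 and Tars2 were the 2 with both KO mice above, at 0.19 and 0.15. The other 9, Ears2 among them, overlapped between genotypes.

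The 12 cytosolic enzymes that are known as Atf4 targets from other studies, a list chosen with earlier results of these data known, held 10 of the 11 genes that rose, with a median log2 fold change of 0.70. Among the 8 cytosolic enzymes outside it 1 rose, with a median of 0.25 and all 8 values above 0. Of 15 other tested genes of the integrated stress response, 8 rose and 0 fell in RNA. Atf4 itself had RNA values of 3552 and 3573 in KO mice, against 1591 and 1336 in WT mice (log2 fold change 1.29, standard error 0.11, adjusted p = 1.6e-04). Asns, the asparagine-forming enzyme that is a classical Atf4 target, had 1600.4 and 1688 in KO mice, against 739.6 and 729 in WT mice (log2 fold change 1.16, standard error 0.10, adjusted p = 2.4e-04). The other 6 were Mthfd2 and Shmt2, mitochondrial enzymes of one-carbon metabolism (log2 fold changes of 2.42 and 1.40), the transcription factor Ddit3 (1.58), the glutathione-degrading Chac1 (1.75), Sesn2 (1.19) and the leucine transporter subunit Slc7a5 (0.82). Except for Slc7a5, each of these 8 genes had a larger log2 fold change than Cars, the highest of the synthetases. In footprints 5 of the 15 rose and 0 fell, Atf4 (2.09), Mthfd2 (2.23), Ddit3 (1.69), Chac1 (1.50) and Asns (0.92). In translational efficiency none of the 15 passed (limma; 2 higher and 0 lower at an unadjusted p under 0.05), and the smallest p belonged to Atf4 (log2 fold change 0.80, 95% interval 0.42 to 1.18) and Nupr1 (0.90, interval 0.14 to 1.66). TGATGNAAN was present in 6 of 18 promoters found for the stress response list.

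A second list held 14 tested genes that act beside the synthetases, such as proofreading enzymes, the mitochondrial glutamyl-tRNA amidotransferase, selenocysteine synthesis and peptidyl-tRNA hydrolases. None passed in RNA, footprints or translational efficiency (limma; 2 higher in RNA and 0 lower at an unadjusted p under 0.05, and 0 in the other measures). The smallest p in RNA belonged to Qrsl1 and Gatc, both amidotransferase subunits. Qrsl1 had 152 and 154 in KO mice, against 111 and 111 in WT mice (log2 fold change 0.46, standard error 0.17, adjusted p = 0.147), and Gatc had 502 and 523 in KO mice, against 432 and 414 in WT mice (log2 fold change 0.28, standard error 0.12, adjusted p = 0.207). The smallest p belonged to Aarsd1 (0.17, interval -0.11 to 0.44) and Pstk (-0.36, interval -0.99 to 0.26) in footprints, and to Qrsl1 (-0.35, interval -0.90 to 0.19) and Gatb (-0.34, interval -0.93 to 0.25) in translational efficiency.

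The comparison of ribosome footprints asked whether the difference in RNA reached the ribosome. Of the 39 members, 6 rose and 0 fell in footprints, all of them also higher in RNA, while 0.206% of all transcripts tested rose and 0.384% fell. The median log2 fold change of the 20 cytosolic enzymes was 0.32, with 19 values above 0, and that of all transcripts 0.0022. Both KO mice exceeded both WT mice for 16 of the 20, which 22.8% of all transcripts did. With the replicate number as a block, 0 members passed in footprints, at the same fold changes. The number called was 4 without KO mouse 1 (Nars and Vars were lost), 2 without KO mouse 2 (Aars, Cars, Nars and Vars were lost) and 9 without WT mouse 1 (Gars, Lars and Mars1 were gained).

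**Figure D2:**
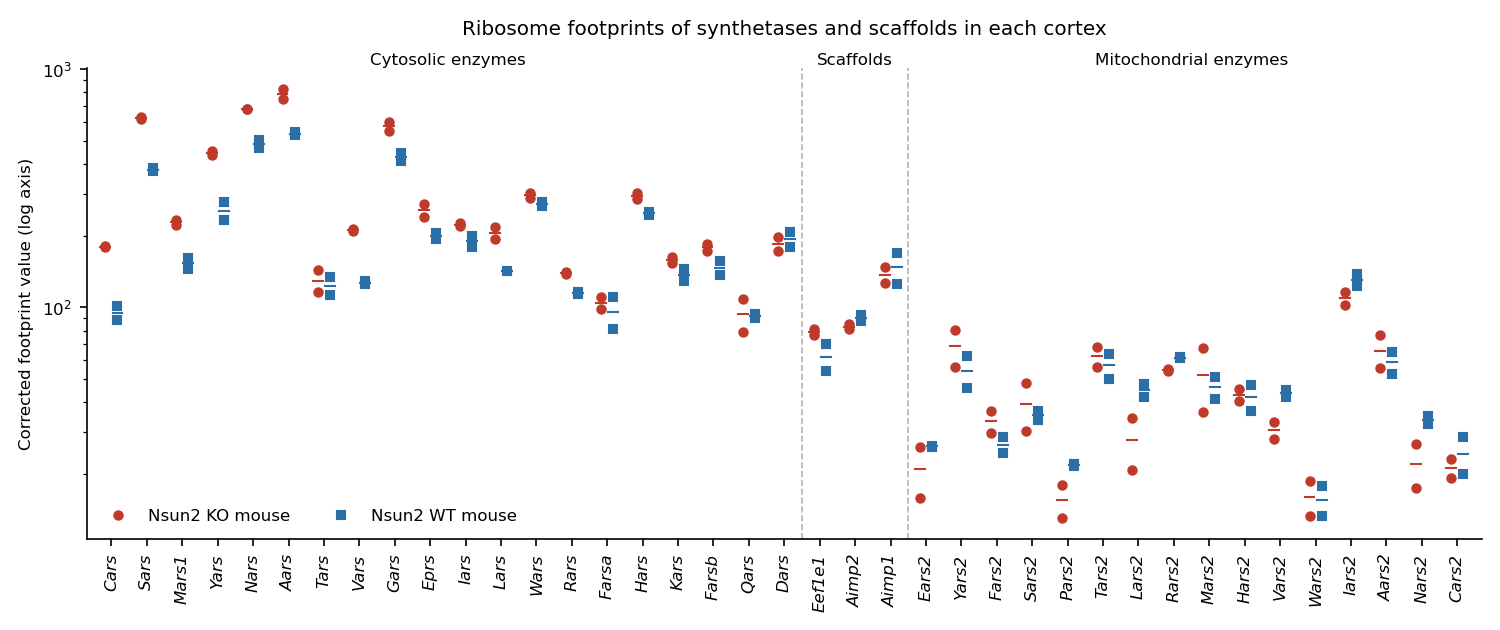
Corrected footprint value of each member (log axis) in the 2 Nsun2 KO mice (circles, left) and the 2 WT mice (squares, right), with short lines for group means and genes in the same order as in the plot of RNA by mouse. Circles lie above squares in 16 of 20 cytosolic enzymes, and Lars2, the highest in RNA, is among the low members here.

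Yars had footprint values of 453 and 434 in KO mice, against 276 and 232 in WT mice (log2 fold change 0.81, standard error 0.11, adjusted p = 0.0041), and Sars had 630.3 and 617 in KO mice, against 384 and 372 in WT mice (log2 fold change 0.72, standard error 0.09, adjusted p = 0.0025). These 2 passed again whichever mouse was left out. Cars had 181 and 178 in KO mice, against 101 and 88.7 in WT mice (log2 fold change 0.92, standard error 0.15, adjusted p = 0.011), the highest fold change of the 39 members in footprints as in RNA. Vars had 210.0 and 213 in KO mice, against 129 and 126 in WT mice (log2 fold change 0.73, standard error 0.13, adjusted p = 0.022). Aars had 748 and 822 in KO mice, against 543 and 526 in WT mice (log2 fold change 0.55, standard error 0.09, adjusted p = 0.011), and Nars had 679 and 679 in KO mice, against 503 and 468 in WT mice (log2 fold change 0.48, standard error 0.09, adjusted p = 0.025). In each of the 6 both KO mice lay above both WT mice. All 6 are free enzymes, so 6 of 12 free enzymes and 0 of 8 enzymes of the complex passed (limma; 3 of the 8 were higher at an unadjusted p under 0.05).

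Mars1 and Gars lay just outside the threshold in footprints. Mars1 had 222 and 233 in KO mice, against 161 and 145 in WT mice (log2 fold change 0.57, standard error 0.13, adjusted p = 0.065), and Gars had 549.9 and 598 in KO mice, against 445 and 413 in WT mice (log2 fold change 0.42, standard error 0.10, adjusted p = 0.068). Gars passed under quantile normalization and Mars1 and Gars passed without WT mouse 1. Lars had 194 and 216 in KO mice, against 142 and 143 in WT mice (log2 fold change 0.52, standard error 0.13, adjusted p = 0.108), and Eprs had 272 and 239 in KO mice, against 193 and 205 in WT mice (log2 fold change 0.36, standard error 0.12, adjusted p = 0.25). Iars had 226 and 219 in KO mice, against 179 and 199.6 in WT mice (log2 fold change 0.23, adjusted p = 0.465, limma). Tars stood apart from the other genes that rose in RNA. Its footprints were 116 and 143 in KO mice, against 134 and 113 in WT mice, with overlap between the genotypes (log2 fold change 0.06, standard error 0.16, adjusted p = 0.912, 95% interval -0.28 to 0.41). Dars was the 1 cytosolic enzyme with a footprint fold change below 0, at -0.07 with an interval of -0.36 to 0.22.

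Among scaffolds, Eef1e1 had footprints of 81.4 and 76.7 in KO mice, against 70.3 and 53.9 in WT mice (log2 fold change 0.36, standard error 0.20, adjusted p = 0.477), and Aimp1 and Aimp2 had log2 fold changes of -0.09 and -0.12. None of the 3 passed in footprints (limma; 0 at an unadjusted p under 0.05). Of the 16 mitochondrial enzymes 0 passed as well (limma; 0 higher and 1 lower at an unadjusted p under 0.05), with a median log2 fold change of -0.07 and 8 values on either side of 0. The smallest p was that of Lars2, the leucine enzyme, with footprints of 34.5 and 20.8 in KO mice, against 47.7 and 42.2 in WT mice (log2 fold change -0.72, standard error 0.28, adjusted p = 0.307). Nars2 and Vars2 had both KO mice below both WT mice, with log2 fold changes of -0.62 (interval -1.25 to 0.02) and -0.51 (-1.03 to 0.01). In all, 6 mitochondrial enzymes had that arrangement, which was found in 19.8% of all transcripts.

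**Figure D3:**
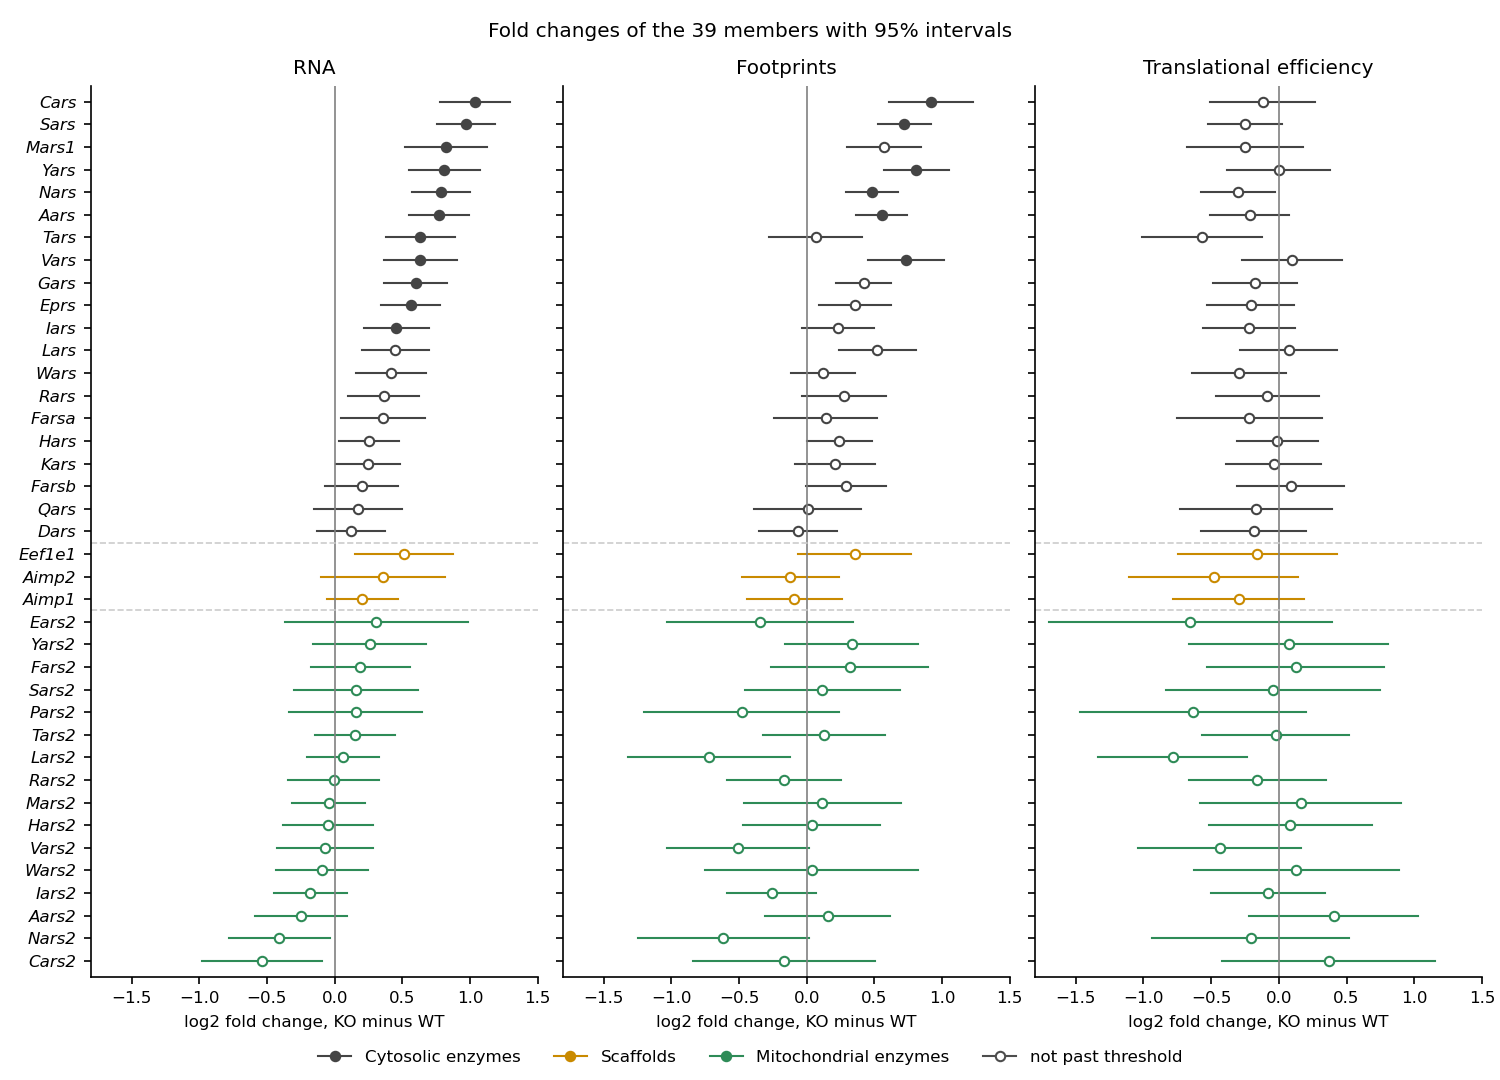
Log2 fold change (KO minus WT) of each member in RNA, footprints and translational efficiency, with 95% intervals from the limma fits; filled points passed an adjusted p of 0.05 and open points did not. Filled points are 11 cytosolic enzymes in RNA and 6 of the same 11 in footprints, and no point is filled in translational efficiency.

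Translational efficiency, the footprint value relative to RNA, was tested in a single limma model of all 8 libraries, as the genotype difference in footprints beyond that in RNA. None of the 39 members passed (limma; 0 higher and 3 lower at an unadjusted p under 0.05), and 0.0% of all transcripts rose and 0.0% fell (167 higher and 297 lower at an unadjusted p under 0.05). The test therefore gives sizes and intervals for the members rather than calls. The footprint and RNA libraries of a mouse share the animal, but this model treated them as independent, and the intervals rest on that. With mouse as a block, 0 transcripts rose and 0 fell as well (limma; 328 higher and 402 lower at an unadjusted p under 0.05). The median log2 fold change was -0.18 for cytosolic enzymes, with 17 of 20 values below 0, -0.30 for the 3 scaffolds and -0.03 for mitochondrial enzymes, against -0.03 for all transcripts, of which 5985 of 10674 lay below 0. RNA enters this measure with a negative sign, so a gene chosen for high KO RNA tends to a value below 0 by construction. Both KO mice lay below both WT mice for 10 of the 20 cytosolic and 5 of the 16 mitochondrial enzymes, an arrangement of 22.9% of all transcripts.

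Tars had footprint to RNA ratios of 0.160 and 0.182 in KO mice, against 0.288 and 0.222 in WT mice (log2 fold change -0.57, 95% interval -1.01 to -0.12, adjusted p = 0.999, limma). Nars had ratios of 0.182 and 0.168 in KO mice, against 0.217 and 0.215 in WT mice (log2 fold change -0.30, interval -0.58 to -0.03), and Sars had 0.183 and 0.171 in KO mice, against 0.206 and 0.215 in WT mice (-0.25, interval -0.52 to 0.02). In these 3 genes the ratios of the genotypes did not overlap. Wars (-0.30, interval -0.64 to 0.05) and Aars (-0.22, interval -0.51 to 0.08) had both KO mice below both WT mice too. Gars and Eprs had the same arrangement, with log2 fold changes of -0.18 (interval -0.49 to 0.13) and -0.21 (interval -0.53 to 0.11). Yars, at -0.0016 (interval -0.38 to 0.38), and Vars, at 0.10 (interval -0.27 to 0.47), lay near 0. Outside the cytosolic enzymes the smallest p belonged to Lars2 (-0.78, interval -1.33 to -0.24), Aimp2 (-0.48, interval -1.11 to 0.14) and Pars2, the proline enzyme of mitochondria (-0.64, interval -1.47 to 0.20). The adjusted p was 0.999 for each of these genes.

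Lars2 stood apart from every other member in RNA. Its RNA values of 122307 and 144853 in KO mice, against 135032 and 120270.0 in WT mice were the third highest mean of the 12719 transcripts and made up 1.05% and 1.25% of the summed RNA values of the KO mice and 1.17% and 1.07% of those of the WT mice. Its footprint to RNA ratio was the lowest of the 10674 transcripts tested, since its footprints were between 20.8 and 47.7. The transcript (3894 bases, coding from base 200 to 2905; chr9:123366927-123462664, GRCm38) shares 25-base words with 2 other annotated RNAs, 44 with AA474408 between bases 3172 and 3313 and 28 with Gm15564 between bases 3278 and 3329, all past the coding part. Whether reads of other RNAs were counted there was not tested. Its RNA value is therefore given as listed, and its ratio and translational efficiency rest on it.

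Levels of different genes were compared per kb of coding sequence. The median footprint value per kb of the 20 cytosolic enzymes was 81.6 and 86.2 in KO mice and 74.7 and 63.9 in WT mice, that of the 3 scaffolds was 154 and 132 in KO mice and 135 and 103 in WT mice and that of the 16 mitochondrial enzymes was 20.8 and 19.9 in KO mice and 22.0 and 20.7 in WT mice. The cytosolic median exceeded the mitochondrial one in every mouse, and the median of all transcripts (46.9 and 46.5 in KO mice and 46.5 and 46.7 in WT mice) lay between. The cytosolic median was higher in both KO mice than in both WT mice, and the mitochondrial medians overlapped.

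Nars, Sars and Gars had the highest footprint values per kb of the cytosolic enzymes in WT mice. Nars had 405 and 405 in KO mice and 300.1 and 279 in WT mice. Sars had 392 and 384 in KO mice and 239 and 231 in WT mice. Gars had 251 and 273 in KO mice and 203 and 189 in WT mice. The 3 ranked in this order in both WT mice without overlap among them, although Gars overlapped Wars there, and in KO mice Aars, at 258 and 283, and Yars, at 268 and 257, overlapped Gars. The lowest were Vars (55.4 and 56.3 in KO mice and 34.0 and 33.2 in WT mice), Cars (72.6 and 71.6 in KO mice and 40.5 and 35.6 in WT mice) and Qars (46.9 and 33.9 in KO mice and 40.5 and 38.9 in WT mice). Cars, Qars and Lars overlapped in WT mice, whereas in KO mice Cars lay above both others.

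Among mitochondrial enzymes, Iars2 (38.2 and 33.7 in KO mice and 45.6 and 40.6 in WT mice), Yars2 (57.1 and 39.9 in KO mice and 44.0 and 32.4 in WT mice) and Rars2 (31.1 and 31.9 in KO mice and 35.2 and 35.6 in WT mice) had the highest footprint values per kb in WT mice. Yars2 overlapped both others there. Vars2 (8.82 and 10.4 in KO mice and 13.3 and 14.2 in WT mice), Pars2 (11.7 and 8.56 in KO mice and 14.1 and 14.4 in WT mice) and Wars2 (12.4 and 17.3 in KO mice and 12.3 and 16.5 in WT mice) had the lowest, again with overlap. Each mitochondrial enzyme was set beside the cytosolic enzyme for the same amino acid (Eprs for Ears2 and Pars2, Farsa for Fars2). The cytosolic enzyme had the higher footprint value per kb in all 4 mice for 16 of 16 pairs. The ratio of Nars to Nars2 was 33.1 and 21.7 in KO mice and 13.2 and 11.4 in WT mice, and that of Wars to Wars2 was 16.9 and 11.5 in KO mice and 15.0 and 11.6 in WT mice. The ratio of Iars to Iars2 was the closest to 1 in WT mice, at 1.56 and 1.72 in KO mice and 1.04 and 1.30 in WT mice.

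**Figure D4:**
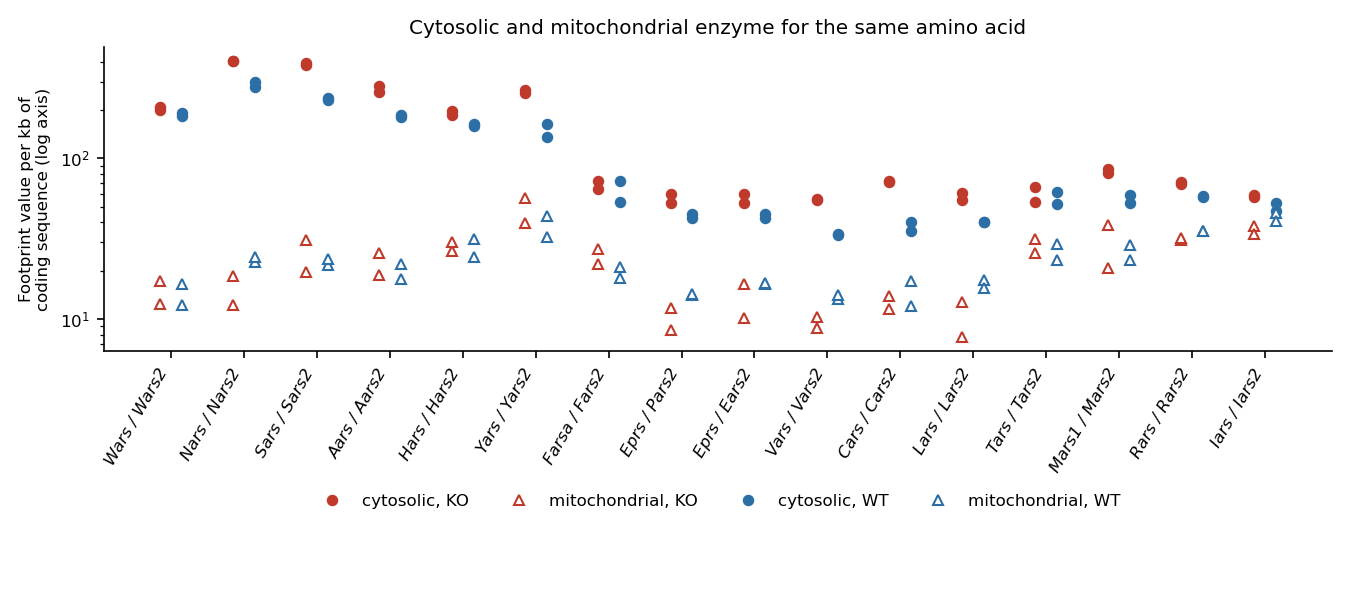
Footprint value per kb of coding sequence (log axis) of the cytosolic enzyme (filled circles) and the mitochondrial enzyme (open triangles) for the same amino acid, with the 2 KO mice on the left and the 2 WT mice on the right of each pair, ordered by the ratio in WT mouse 1. Circles lie above triangles of the same mice in all 16 pairs, and the pairs come closest for Iars and Iars2.

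In RNA per kb of coding sequence the cytosolic median was 346 and 363 in KO mice and 236 and 253 in WT mice, and the mitochondrial median was 104 and 96.9 in KO mice and 101 and 96.5 in WT mice. Nars, Sars and Gars led again, with Nars at 2221 and 2413 in KO mice and 1384 and 1301 in WT mice, although Gars overlapped Hars in WT mice. Vars, at 126 and 125 in KO mice and 84.1 and 78.3 in WT mice, had the lowest RNA value per kb. The cytosolic enzyme exceeded its mitochondrial counterpart in all 4 mice for 13 of 16 pairs, and Iars2, Lars2 and Mars2 were the exceptions. Apart from Lars2, Mars2 had the highest RNA value per kb of coding sequence of the mitochondrial enzymes (261 and 275 in KO mice and 257 and 297 in WT mice) and Ears2 the lowest (28.3 and 35.6 in KO mice and 34.1 and 19.0 in WT mice). The Mars2 transcript is 11294 bases long with a coding part of 1758 bases, and the sources do not state whether RNA reads outside the coding part were counted. Per kb of whole transcript, Mars2 (40.6 and 42.7 in KO mice and 40.0 and 46.2 in WT mice) ranked 12 of 16 in WT mice and lay below Mars1 (242 and 217 in KO mice and 146 and 115 in WT mice), and Iars2 (107 and 90.4 in KO mice and 112 and 110.3 in WT mice) lay below Iars (207 and 215 in KO mice and 152 and 156 in WT mice). Of the 3 exceptions, only Lars2 thus held under both lengths.

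The ratio of footprint to RNA value, a description of each transcript and not of a genotype, had a median of 0.256 and 0.241 in KO mice and 0.268 and 0.254 in WT mice over cytosolic enzymes, 0.429 and 0.317 in KO mice and 0.477 and 0.354 in WT mice over scaffolds and 0.192 and 0.230 in KO mice and 0.234 and 0.231 in WT mice over mitochondrial enzymes. The median of all transcripts tested was 0.151 and 0.151 in KO mice and 0.151 and 0.156 in WT mice, below that of each class in every mouse. The ratio was not scaled by length. If RNA reads outside the coding part were counted, which the sources do not state, a long part outside it lowers the ratio. Ranks of classes and genes by this ratio are therefore not a measure of translation alone. Vars, the cytosolic enzyme with the lowest RNA value per kb, had one of the highest ratios of its class, at 0.439 and 0.449 in KO mice and 0.404 and 0.423 in WT mice, next to Wars at 0.373 and 0.343 in KO mice and 0.397 and 0.485 in WT mice. Eprs (0.168 and 0.145 in KO mice and 0.179 and 0.182 in WT mice) and Kars (0.167 and 0.186 in KO mice and 0.195 and 0.168 in WT mice) had the lowest in WT mice. Among scaffolds Aimp2 had the highest ratio (0.517 and 0.678 in KO mice and 0.679 and 1.01 in WT mice), and among mitochondrial enzymes Ears2 had the highest mean ratio in WT mice (0.357 and 0.466 in KO mice and 0.485 and 0.881 in WT mice) and Yars2 in KO mice (0.510 and 0.423 in KO mice and 0.446 and 0.435 in WT mice). Wars2 (0.0888 and 0.121 in KO mice and 0.0806 and 0.111 in WT mice) and Mars2 (0.148 and 0.0758 in KO mice and 0.113 and 0.0789 in WT mice) had the lowest mitochondrial ratios after Lars2.

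Glycine codons were counted because glycine tRNAs, the substrates of Gars, had lower summed values in KO cortex in both tRNA assays. The median share of glycine codons was 5.98% in cytosolic enzymes (range 5.19 to 8.06%), 5.17% in scaffolds, 7.0% in mitochondrial enzymes and 6.30% over all transcripts tested. Shares in mitochondrial enzymes ranged between 4.44 and 9.11%. Yars2 (9.11%), Aars2 (8.78%) and Aars (8.06%) had the highest shares, and their log2 fold changes in translational efficiency were 0.07, 0.40 and -0.22. Wars2 had the lowest share (4.44%) and a fold change of 0.13. None of these 4 passed, and their intervals all include 0. The GGA codon made up 0.197% of Farsa and 2.79% of Dars, the lowest and highest shares of the cytosolic enzymes, with fold changes in translational efficiency of -0.22 and -0.19.

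The tRNAs that these enzymes charge were measured in other cortices with 2 assays, dm-Hydro-tRNAseq (3 KO and 3 WT mice) and YAMAT-seq (4 KO and 3 WT mice), which share 6 mice. Values are given as a description, with no test. Of the 20 amino acids, 3 had no overlap between the genotypes in dm-Hydro-tRNAseq and 9 had none in YAMAT-seq. Isodecoders of an amino acid were summed, and whether a read entered more than 1 isodecoder was not tested. The substrates of Gars, the glycine tRNAs, summed to 32876 ± 2875 CPM (SD, n = 3) in KO mice and 68876 ± 10955 CPM (SD, n = 3) in WT mice in dm-Hydro-tRNAseq, and to normalized counts of 3866 ± 451 (SD, n = 4) in KO mice and 5375 ± 676 (SD, n = 3) in WT mice in YAMAT-seq. KO mice lay below WT mice without overlap in both assays. For the serine tRNAs of Sars the sums were 1120.5 ± 238 CPM (SD, n = 3) in KO mice and 1238 ± 65.4 CPM (SD, n = 3) in WT mice with overlap in dm-Hydro-tRNAseq, and normalized counts of 3554 ± 392 (SD, n = 4) in KO mice and 2753 ± 325 (SD, n = 3) in WT mice without overlap in YAMAT-seq. For the alanine tRNAs of Aars they were 2681 ± 918 CPM (SD, n = 3) in KO mice and 2674 ± 446 CPM (SD, n = 3) in WT mice with overlap, and normalized counts of 3279.5 ± 191 (SD, n = 4) in KO mice and 2479.6 ± 134 (SD, n = 3) in WT mice without overlap. The cysteine tRNAs of Cars overlapped between the genotypes in both assays, with 2129.8 ± 695 CPM (SD, n = 3) in KO mice and 1679 ± 438 CPM (SD, n = 3) in WT mice and normalized counts of 2907 ± 302 (SD, n = 4) in KO mice and 2829 ± 169.6 (SD, n = 3) in WT mice. The 11 enzymes with higher RNA serve 12 amino acids. KO means were lower than WT means for 6 and higher for 6 of these in dm-Hydro-tRNAseq, and lower for 4 and higher for 8 in YAMAT-seq. The asparagine tRNAs of Nars were higher in KO mice without overlap in dm-Hydro-tRNAseq, at 2734 ± 446 CPM (SD, n = 3) in KO mice and 1838 ± 259.6 CPM (SD, n = 3) in WT mice, and overlapped in YAMAT-seq, at normalized counts of 341 ± 27.3 (SD, n = 4) in KO mice and 329 ± 28.2 (SD, n = 3) in WT mice. The proline tRNAs of Eprs were lower in KO mice without overlap in YAMAT-seq, at normalized counts of 14324 ± 2511 (SD, n = 4) in KO mice and 21679 ± 5751 (SD, n = 3) in WT mice, and overlapped in dm-Hydro-tRNAseq, at 3169 ± 1271 CPM (SD, n = 3) in KO mice and 4468 ± 783 CPM (SD, n = 3) in WT mice. The glutamate tRNAs of Eprs overlapped in both assays. The methionine tRNAs of Mars1 overlapped in dm-Hydro-tRNAseq. In YAMAT-seq they were lower in KO mice without overlap, at normalized counts of 1866 ± 199 (SD, n = 4), against 2165 ± 141 (SD, n = 3) in WT mice. Glycine was the only 1 of the 12 with KO below WT without overlap in both assays. The 22 mitochondrial tRNAs, the substrates of the mitochondrial enzymes, summed to normalized counts of 22588 ± 4166 (SD, n = 4) in KO mice and 29425 ± 5388 (SD, n = 3) in WT mice in YAMAT-seq, with overlap.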

How the data were processed

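Ribosome footprints and RNA were measured in the same 4 cortices (2 KO, 2 WT), and tRNAs in other animals. Of 103 samples listed, 17 had a column in the tables used. The deposited Riboseq table holds a normalized signal per transcript. The authors trimmed reads with cutadapt 3.1, removed duplicates by molecular identifier with UMI-tools 1.1.1, depleted ribosomal, transfer and mitochondrial RNA, aligned the rest with Bowtie2 2.4.2 on the sense strand only to the longest coding transcripts of Ensembl, sorted with SAMtools 1.11, corrected footprints for stalling and scaled libraries by their medians in Ribolog, and removed transcripts without reads. In each RNA library 100% of values were whole multiples of 1 step (within 0.02), but the lowest value was already 5 or 6 steps, so that 1 step could not be shown to be 1 read, and corrected footprints were not whole. No count test was run, and the depth of footprints is unknown. The dm-Hydro-tRNAseq table holds CPM as the authors computed it, and the YAMAT-seq table a signal of DESeq2-normalized counts as deposited. Scaling to a fixed total makes a tRNA's value depend on the others.

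Transcripts with a mean footprint value of at least 10 (10674 of 12719) were fitted with limma 3.58.1 in R 4.3.3 (trend, empirical Bayes, log2(value + 1), genotype as the term). Fold changes are on this scale, which understates those of low values. P-values were adjusted over all 10674 by Benjamini-Hochberg, with 0.05 as threshold. Translational efficiency was tested over 8 libraries by a term for genotype and library kind together (their interaction), and its per-mouse ratios are footprint over RNA values. The fits were tested on simulated data with added changes of known size. Noise was drawn separately for each library from the spread that the fits had estimated, with no effect shared by the 2 libraries of a mouse. Recovery in the real data may therefore be lower. Of log2 changes of 0.5, 59.6% were recovered in RNA, 21.65% in footprints and 4% in translational efficiency. Of log2 changes of 1, 94% were recovered in RNA, 64.2% in footprints and 44.7% in translational efficiency. A member that did not pass may thus still differ. Positions and coding lengths are from GENCODE vM21 (GRCm38), and promoters from RefSeq. Protein sequences were not analysed here, and 1 gene and 1 promoter stretch are not reported here. Members and lists were chosen with earlier results of these data known. Named in full were members past a threshold, Gars, Eprs, the 8 smallest p in each test, and the highest and lowest 3 per coding length in the cytosolic and mitochondrial sets. From other lists, members past the threshold or, with none, the 2 with the smallest p were named, and Lars, Iars, Dars and other members with values were added after their values were seen. Pseudocounts of 0.5 and 5, no filter or one of 50, 2 rescalings, the replicate number or mouse as a block and leaving out each mouse were tried.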

Additional observations from a re-analysis of the deposited data

Results flagged for a closer look

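The summed tRNA-Ala value of YAMAT-seq in 1 of the 4 KO mice, 3564 normalized counts, lay far from the other 3 KO mice (3149.8 to 3208), with a gap of 0.860 of the range of the group, above Dixon's critical value for a group of this size. Chance gives about 1 in 20 groups such a gap. The rule was applied to the KO sums of all 20 amino acids and of the mitochondrial tRNAs in YAMAT-seq, so 1 such gap is near what chance gives. Both it and the other KO mice lay above the 3 WT mice (2342 to 2610.2).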

How the results depend on the processing

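The counts of 11 members higher in RNA and 6 in footprints, with 0 lower, were the same with pseudocounts of 0.5 and 5 and with no filter. A filter of 50 gave 12 and 6, scaling by the median of log ratios 10 and 6, and quantile normalization 10 and 7. Both rescalings moved the RNA median of cytosolic enzymes, to 0.47 by either, against 0.51. Leaving out a mouse gave 5 to 11 members in RNA and 2 to 9 in footprints, with cytosolic medians of 0.49 to 0.55 and 0.26 to 0.38. The lone mouse of a genotype was then assumed to vary like the other pair. The median of translational efficiency was -0.22 to -0.15 without a mouse, and no member passed in translational efficiency under any of these settings or with mouse as a block. With the replicate block 0 members passed in RNA and 0 in footprints, at the same fold changes. The labels do not say that a number joins mice. Same-numbered mice deviated with a correlation of -0.11 in RNA and -0.15 in footprints. With 2 mice a genotype, this cannot show whether mice of a number shared more than the number. A crossed pairing, chosen after seeing the data, gave 14 and 9 members and 494 higher and 553 lower transcripts in RNA and 136 and 298 in footprints. No member called in RNA or footprints, and no cytosolic median, changed direction under any setting tried. The median log2 fold change of all transcripts did change sign. After scaling by the median of log ratios it was -0.0022 in RNA, against 0.04, and -0.0086 in footprints, against 0.0022.

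Over all transcripts, RNA had 160 higher and 176 lower, against 4 and 2 with the replicate block, 86 and 194 when KO mouse 1 was left out, 76 and 109 for KO mouse 2, 256 and 258 for WT mouse 1, 35 and 15 for WT mouse 2, and 157 and 117 with a filter of 50, which tested 6277 transcripts. Footprints had 22 and 41, against 2 and 1 with the block, 14 and 56 when KO mouse 1 was left out, 5 and 12 for KO mouse 2, 166 and 382 for WT mouse 1, 58 and 78 for WT mouse 2, and 14 and 11 with a filter of 50. The cause of these differences was not tested. The ratio of the cytosolic to the mitochondrial median in RNA, averaged over mice, was 3.01 per kb of coding sequence and 4.83 per kb of whole transcript. The number of mice, 2 a genotype, limits all tests.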
